A study of Mus musculus with 12 samples.

Results

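Fatty acid oxidation and ketone body genes were followed in the glomerular transcriptome of diabetic and nondiabetic mice. The genes were taken by name from a list of 37 symbols covering the regulators, uptake, activation, mitochondrial and peroxisomal oxidation, thioester cleavage and ketone body steps. The list was chosen with earlier results of these data known, so its shares beside those of all genes describe the list and are not independent evidence. A row of the deposited tables counted as a member where its symbol equalled 1 of these names, and 36 of the 37 were found among the 14096 listed genes. Fabp1, which encodes the liver fatty acid-binding protein, was not among the listed genes and is not analysed here.

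The mice were male eNOS-/- animals on the C57BL/6J strain, so that all of them lacked endothelial nitric oxide synthase, and no wild-type mouse was sequenced here. Diabetes was induced at 8 weeks of age with streptozotocin (STZ), a toxin of pancreatic beta cells, at 50 mg/kg on 5 days, and nondiabetic controls received citrate buffer. From 10 weeks after induction, mice were gavaged daily with arctigenin (ATG, a plant lignan) at 40 mg/kg or with 5% DMSO vehicle for 8 weeks, and glomeruli were isolated at 18 weeks. Each of the 4 groups held 3 mice with 1 mRNA library each, namely vehicle-treated nondiabetic, ATG-treated nondiabetic, vehicle-treated diabetic and ATG-treated diabetic mice. The labels' protocol goes on to dissociation and sorting of cells by a fluorescent marker, whereas the study's methods describe RNA from isolated glomeruli, and which of them the libraries came from was not resolved. The libraries carried transcripts of podocytes, endothelium and mesangium, and also all 25 markers of the proximal tubule, at 87 reads or more in every mouse. The leading part of the sample titles differed between groups and held mice of 1 group only, so that a processing batch and the group cannot be told apart.

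Values are log2 of reads per gene scaled by 1 factor per library. The linear values summed to between 29.7 M and 30.2 M per library, and between 23.6 M and 29.8 M reads were recovered from their steps. The lowest member count was 87 reads, in Pex11a. All differences below are differences of these log2 values, tested with limma in 1 model over the 12 mice and adjusted over all 14096 genes, and a gene was taken to pass at an adjusted p under 0.05. Nothing in the labels ties a mouse to a cage or litter, and the p-values measure the spread between mice.

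Fatty acids taken up by a cell are activated to acyl-CoA, carried across the inner mitochondrial membrane as carnitine esters, and shortened in repeated rounds of dehydrogenation, hydration, a second dehydrogenation and thiolytic cleavage. Peroxisomes shorten very long and branched chains, and ketone bodies provide a circulating fuel made from the acetyl-CoA that results. The nuclear receptor PPARα and the coactivator PGC-1α drive transcription of many of these enzymes, and proximal tubule cells are known in the kidney for their heavy use of fatty acids.

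Many member genes were lower in diabetic than in nondiabetic mice, under vehicle and under ATG. In vehicle-treated mice, 12 of the 36 members passed as lower with diabetes and 0 as higher, while 18.9% of all genes passed, 8.63% as lower and 10.2% as higher. Their median log2 difference was −0.37, against 0.01 over all genes, and 33 of the 36 differences were negative. That median ranged from −0.49 to −0.23 with 1 mouse left out, and was −0.23 without vehicle-treated diabetic mouse 3. In ATG-treated mice, 32 of 36 passed as lower and 0 as higher, where 46.7% of all genes passed, 20.8% as lower and 25.9% as higher. The median was then −0.75, against 0.05 over all genes, with all 36 differences negative. Between ATG and vehicle in nondiabetic mice, 2 members passed as higher, where 0.709% of all genes did, and 0 as lower, where 4.51% did (5.22% in either direction). All 36 differences were positive, with a median of 0.42 against −0.04 over all genes. Between ATG and vehicle in diabetic mice, 0 members and 0% of all genes passed in limma, 1 member and 636 of 14096 genes had an unadjusted p under 0.05, and limma-voom on recovered reads also called 0. The median was 0.06 against −0.01 over all genes, and 21 of the 36 differences changed sign without vehicle-treated diabetic mouse 3. Each group enters 2 of these comparisons, so they are not independent of each other.

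**Figure D1:**
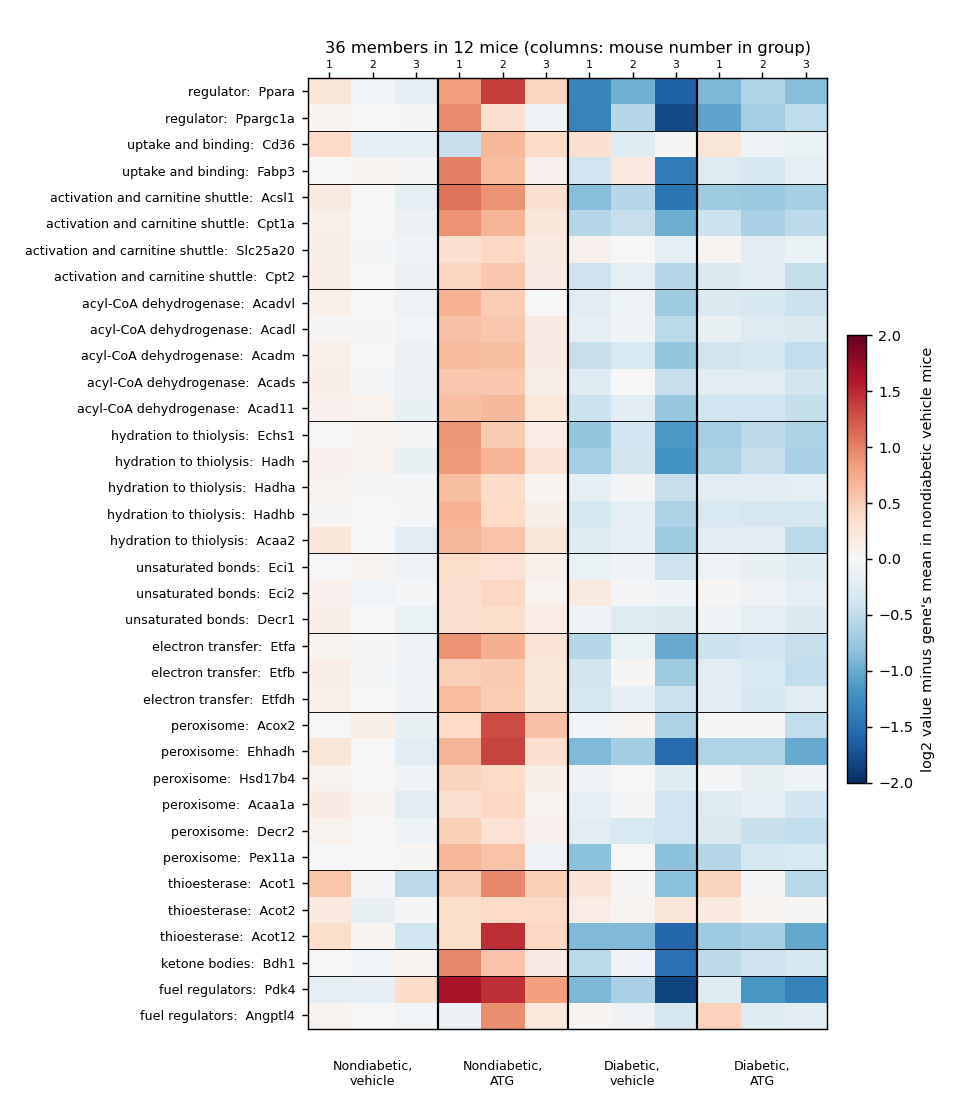
Log2 value of each of the 36 members (rows, grouped by role) in each of the 12 mice (columns), minus the gene's mean in vehicle-treated nondiabetic mice, with blue for lower and red for higher. ATG-treated nondiabetic mice 1 and 2 are red for nearly all members, and vehicle-treated diabetic mouse 3 is the bluest column.

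The share of the library's linear sum taken by the 36 members together ranged from 0.384% to 0.434% in vehicle-treated nondiabetic mice, from 0.461% to 0.661% in ATG-treated nondiabetic mice, from 0.244% to 0.352% in vehicle-treated diabetic mice and from 0.305% to 0.329% in ATG-treated diabetic mice. Both nondiabetic groups lay above both diabetic groups, the groups of nondiabetic mice did not overlap, and the groups of diabetic mice did. Between the groups, the 25 proximal tubule markers moved with these shares. They took 0.411% to 0.695%, 0.810% to 1.34%, 0.0837% to 0.230% and 0.135% to 0.277% of the linear sum in the same order of groups. Within both ATG-treated groups, the mice stood in another order for these markers than for the members. ATG-treated nondiabetic mice 1 to 3 had 0.661%, 0.616% and 0.461% for the members and 0.810%, 1.34% and 0.9655% for the tubule markers. In vehicle-treated mice, 20 of the 25 markers passed as lower with diabetes, with a median log2 difference of −1.45. Kap, a transcript of proximal tubule cells, fell by 3.17 on the log2 scale, from a mean of 16.03 to 12.86. In ATG-treated mice, all 25 passed as lower, with a median of −1.87. Their log2 differences between ATG and vehicle were all positive in nondiabetic mice (median 0.79) and in diabetic mice (median 0.39), with 0 passing in limma in either and 11 and 0 at an unadjusted p under 0.05. Of all 14096 genes, 4263 and 636 had an unadjusted p under 0.05 in these comparisons.

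When the mean of the 25 proximal tubule markers entered the model as a covariate, 0 members passed in limma in any comparison, and the genes passing for diabetes in vehicle-treated mice went from 2659 to 22 of 14096. The members' median log2 difference for diabetes was then 0.07 in vehicle-treated mice and −0.17 in ATG-treated mice. The marker mean itself differs between the groups, and this fit therefore also takes up differences between the groups. Markers of the distal nephron and collecting duct moved as well, with 7 of 19 lower with diabetes under vehicle (median −0.83) and 16 of 19 under ATG (median −1.20). With their mean as the covariate instead, 2 members passed for diabetes under vehicle, Ppara as lower (−0.92) and Fabp3 as higher (0.41), where 13.98% of all genes passed. Under ATG 5 passed, with Acsl1, Cpt1a, Etfdh and Ppara lower and Fabp3 higher (0.49), where 9.75% of all genes passed. Since the libraries are bulk RNA, fewer cells of a type and less RNA per cell cannot be told apart. Of 15 podocyte markers, 0 passed for diabetes in vehicle-treated mice in limma, with 1 at an unadjusted p under 0.05. In nondiabetic mice, all 15 differences for ATG were negative and 0 passed in limma, with a median log2 difference of −0.60. An unadjusted p under 0.05 was found for 8 of them and for 4263 of all 14096 genes. The mean log2 value of these markers was 12.88 and 13.32 in ATG-treated nondiabetic mice 1 and 2. In mouse 3 it was 14.04, within the 13.93 to 14.05 of the vehicle-treated nondiabetic mice. The 12 endothelial markers had a median of 0.36 for diabetes in vehicle-treated mice (4 passed as higher) and −0.62 for ATG in nondiabetic mice (5 passed as lower). The 9 mesangial markers all had negative differences in both of these comparisons, with a median of −0.30 and 2 passing as lower for diabetes, and a median of −0.84 and 4 passing as lower for ATG. For diabetes with vehicle, 10.2% of all genes passed as higher and 8.63% as lower. For ATG in nondiabetic mice, 4.51% passed as lower. Between diabetic and nondiabetic mice given ATG, the median of each list of glomerular and leukocyte markers was above 0. There 12 of 12 endothelial markers (median 0.98), 4 of 15 podocyte markers (median 0.62), 5 of 9 mesangial markers (median 0.62) and 4 of 8 leukocyte markers (median 0.51) passed as higher. Of all genes, 25.9% passed as higher there, a share close to that of the podocyte markers. The part of these markers in the members' differences was not tested.

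**Figure D2:**
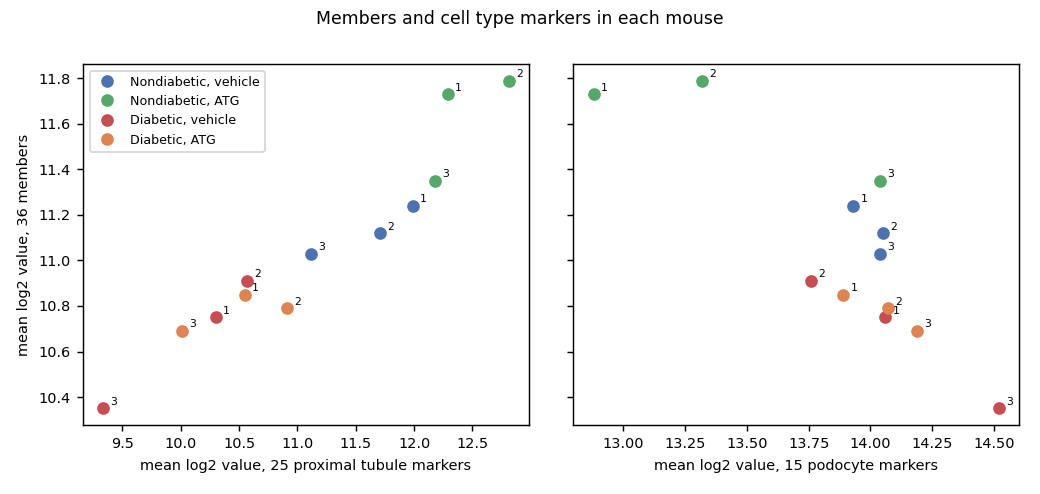
Mean log2 value of the 36 members (vertical axis) in each mouse against the mean log2 value of 25 proximal tubule markers (left) and of 15 podocyte markers (right), with a point per mouse, its number beside it and its group in colour. The members' mean ran from 10.35 in vehicle-treated diabetic mouse 3, which also had the lowest tubule mean of 9.34, to 11.79 in ATG-treated nondiabetic mouse 2, which had the highest of 12.81.

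The regulators had the largest differences of the 36 members between diabetic and nondiabetic mice given vehicle. Ppara encodes PPARα, the receptor that is switched on by fatty acids, and lies on chromosome 15 of GRCm38 (mm10) from 85735564 to 85806851. Its log2 values were 10.20, 9.90 and 9.74 in vehicle-treated and 10.78, 11.33 and 10.37 in ATG-treated nondiabetic mice. They were 8.64, 8.98 and 8.33 in vehicle-treated and 9.05, 9.34 and 9.09 in ATG-treated diabetic mice. All 6 diabetic mice lay below all 6 nondiabetic mice, and ATG-treated mice lay above vehicle-treated mice in either state. The log2 difference between diabetic and nondiabetic mice was −1.29 (SE 0.23, adjusted p = 0.00641 from limma; SE, standard error) with vehicle and −1.66 (SE 0.23, adjusted p = 0.000468 from limma) with ATG. The difference between ATG and vehicle was 0.88 (SE 0.23, adjusted p = 0.0507 from limma) in nondiabetic mice. It was 0.51 (95% interval 0.00 to 1.01, adjusted p = 1.00 from limma) in diabetic mice, where Ppara was the only member whose groups did not overlap, against 3.85% of all genes lying wholly above. Ppara passed for diabetes in both treatments with each of the 12 mice left out in turn. Once the mean of the tubule markers entered as a covariate, its differences for diabetes were −0.48 (SE 0.25) with vehicle and −0.64 (SE 0.30) with ATG, and neither passed.

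Ppargc1a encodes PGC-1α, the coactivator of mitochondrial gene programmes, and lies on chromosome 5 from 51454249 to 51567725. Its log2 values were 11.57, 11.53 and 11.50 in vehicle-treated nondiabetic mice, 12.47, 11.87 and 11.44 in ATG-treated nondiabetic mice, 10.20, 10.96 and 9.75 in vehicle-treated diabetic mice, and 10.48, 10.86 and 11.03 in ATG-treated diabetic mice. The diabetic mice again lay below the nondiabetic mice, while the treatments overlapped in either state. The log2 difference for diabetes was −1.23 (SE 0.30, adjusted p = 0.0196 from limma) with vehicle and −1.14 (SE 0.30, adjusted p = 0.0106 from limma) with ATG. Between ATG and vehicle it was 0.49 in diabetic mice (95% interval −0.17 to 1.15) and 0.40 in nondiabetic mice (95% interval −0.27 to 1.06), and neither passed.

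PPARα binds DNA with its partner RXR at direct repeats of the hexamer AGGTCA with a single base between them, so the upstream sequences of the members were searched for these letters on both strands. RefSeq starts on GRCm38.p6 were found for 32 of the 36 members, with 35 upstream windows of 250 bases. The repeat AGGTCANAGGTCA was in 0 of the 32, against 0.0448% of 11151 listed genes, and its relaxed form AGGNCANAGGNCA in 0, against 0.323%. The element TCAAGGTCA, the consensus of the estrogen-related receptors, was in 0, against 0.305%. A single hexamer AGGTCA, which the direct repeat and the estrogen-related receptor element both contain, was in 6 members (18.8% of 32), against 13.6% of listed genes. A match describes the letters only, and the windows do not reach introns or distant enhancers. The stretches around the 6 hexamers are shown because no longer form was found. They lie at chr19:3323182-3323237 (Cpt1a, plus strand), chr7:140116474-140116529 (Echs1, minus strand), chr3:153944862-153944893 (Acadm, minus strand), chr11:70015485-70015540 (Acadvl, minus strand), chr13:91741386-91741441 (Acot12, plus strand) and chr5:17836094-17836146 (Cd36, minus strand). Each is written from 5′ to 3′ on the gene's strand, with the hexamer or its reverse complement TGACCT in capitals.
Cpt1a: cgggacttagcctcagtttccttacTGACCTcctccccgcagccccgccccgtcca
Echs1: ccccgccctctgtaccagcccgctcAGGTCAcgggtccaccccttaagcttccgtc
Acadm: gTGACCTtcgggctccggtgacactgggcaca
Acadvl: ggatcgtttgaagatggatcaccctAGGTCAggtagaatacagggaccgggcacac
Acot12: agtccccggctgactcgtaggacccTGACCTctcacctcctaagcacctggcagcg
Cd36: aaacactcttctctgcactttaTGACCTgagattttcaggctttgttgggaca
The capitals begin at position −94 from the RefSeq start in Cpt1a, −83 in Echs1, −249 in Acadm, −87 in Acadvl, −110 in Acot12 and −228 in Cd36.

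Neither gene of uptake and binding passed in any comparison. Cd36, a fatty acid translocase of the cell surface on chromosome 5 from 17781690 to 17888959, had log2 values of 11.64, 11.07 and 11.08 in vehicle-treated and 10.80, 11.92 and 11.63 in ATG-treated nondiabetic mice. The values were 11.57, 11.01 and 11.29 in vehicle-treated and 11.51, 11.18 and 11.14 in ATG-treated diabetic mice. The 4 groups overlapped throughout. The log2 difference for diabetes was 0.03 (95% interval −0.56 to 0.61) with vehicle and −0.18 (95% interval −0.76 to 0.41) with ATG. Fabp3, the heart-type fatty acid-binding protein, averaged 10.61 ± 0.80 (SD, n = 3) with diabetes and 11.15 ± 0.04 (SD, n = 3) without it under vehicle. Its diabetic values of 10.74, 11.34 and 9.75 spread on both sides of the nondiabetic 11.14, 11.19 and 11.12, and the log2 difference of −0.54 (SE 0.33) did not pass.

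Of 4 genes for activation and the carnitine shuttle, 3 passed as lower with diabetes under vehicle and all 4 under ATG. Of all genes, 8.63% and 20.8% passed as lower. Acsl1, which attaches coenzyme A to long-chain fatty acids, lies on chromosome 8 from 46471037 to 46536051. Its log2 values were 12.34, 12.18 and 11.98 in vehicle-treated nondiabetic mice, 13.25, 13.07 and 12.47 in ATG-treated nondiabetic mice, 11.31, 11.59 and 10.71 in vehicle-treated diabetic mice, and 11.45, 11.43 and 11.51 in ATG-treated diabetic mice. The groups stood in the order of ATG-treated nondiabetic, vehicle-treated nondiabetic and then both diabetic groups, and only the diabetic groups overlapped each other. Diabetic minus nondiabetic mice gave −0.96 (SE 0.23, adjusted p = 0.0177 from limma) with vehicle and −1.47 (SE 0.23, adjusted p = 0.000763 from limma) with ATG. Between ATG and vehicle it was 0.77 (adjusted p = 0.0690 from limma) in nondiabetic mice and 0.25 (95% interval −0.24 to 0.75) in diabetic mice. The Acsl1 values did not come out as whole reads in any of the 12 libraries.

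Cpt1a encodes carnitine palmitoyltransferase 1A, the entry step of long chains into mitochondria, and lies on chromosome 19 from 3323301 to 3385733. It had log2 values of 13.72, 13.63 and 13.50 in vehicle-treated and 14.51, 14.29 and 13.84 in ATG-treated nondiabetic mice. In diabetic mice they were 13.05, 13.16 and 12.64 with vehicle and 13.18, 12.97 and 13.09 with ATG. Nondiabetic mice lay above diabetic mice, and among nondiabetic mice those given ATG lay above those given vehicle. The log2 difference for diabetes was −0.67 (SE 0.17, adjusted p = 0.0228 from limma) with vehicle and −1.13 (SE 0.17, adjusted p = 0.000691 from limma) with ATG, and that for ATG in nondiabetic mice was 0.60 (SE 0.17, adjusted p = 0.0630 from limma). Cpt2, the enzyme that reforms acyl-CoA inside mitochondria, had a difference of −0.39 (adjusted p = 0.0495 from limma) with vehicle and −0.70 (adjusted p = 0.00151 from limma) with ATG.

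Slc25a20 encodes the carrier that exchanges acylcarnitine across the inner membrane between these enzymes, on chromosome 9 from 108662098 to 108684641. Log2 values were 10.46, 10.31 and 10.25 in vehicle-treated nondiabetic mice, 10.66, 10.76 and 10.53 in ATG-treated nondiabetic mice, 10.42, 10.33 and 10.14 in vehicle-treated diabetic mice and 10.39, 10.12 and 10.20 in ATG-treated diabetic mice. Only the ATG-treated nondiabetic mice stood apart, above all others. The log2 difference for diabetes was −0.04 (95% interval −0.26 to 0.18) with vehicle and −0.41 (SE 0.10, adjusted p = 0.00766 from limma) with ATG.

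**Figure D3:**
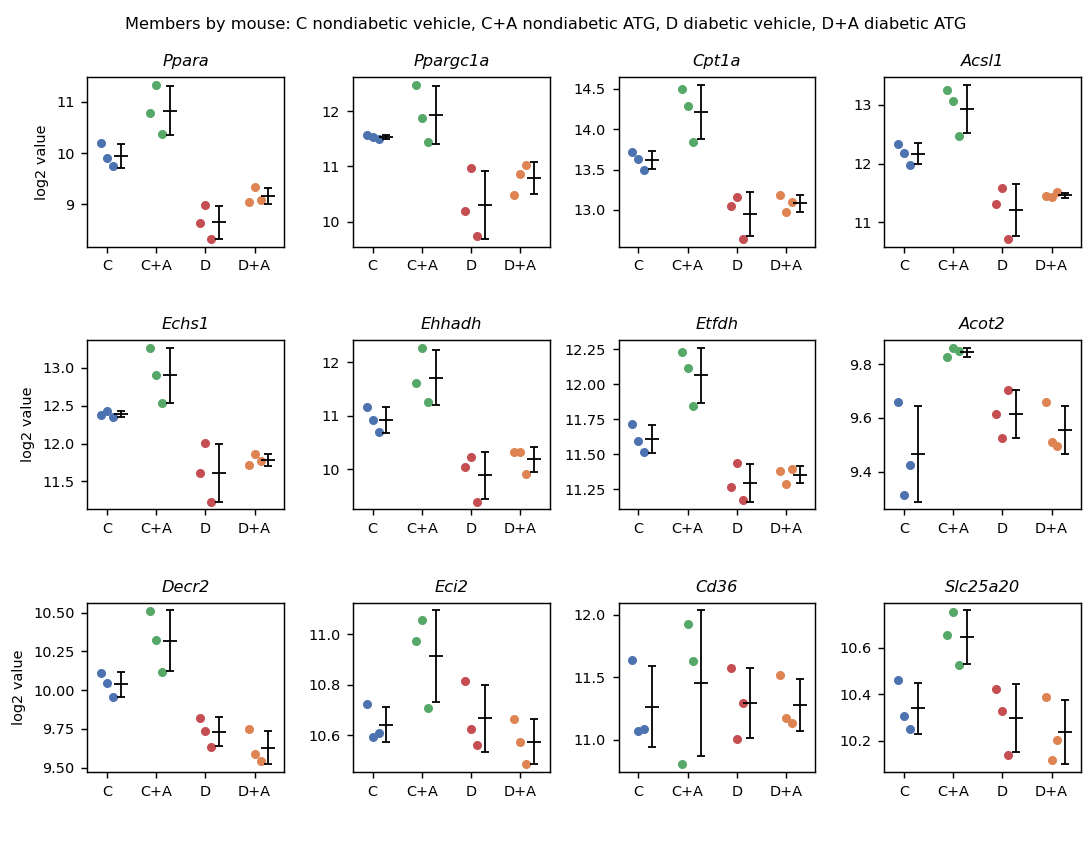
Log2 values of 12 members in the 3 mice of each group (points), with the group mean and SD beside them (bars), where the vertical axes differ between genes and do not start at 0. Ppara, Ppargc1a, Cpt1a, Acsl1, Echs1, Ehhadh, Etfdh and Decr2 show diabetic mice wholly below nondiabetic mice, while Cd36, Slc25a20, Eci2 and Acot2 overlap between vehicle-treated diabetic and nondiabetic mice.

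The 5 acyl-CoA dehydrogenases, which carry out the first oxidation of each round, prefer chains of different length. Acadvl, for very long chains, had a log2 difference for diabetes of −0.35 with vehicle and −0.76 with ATG. Acadl, for long chains, had −0.26 and −0.66, and Acads, for short chains, −0.24 and −0.66. With 1 mouse left out, the vehicle values ranged from −0.47 to −0.17 for Acadvl and from −0.36 to −0.13 for both Acadl and Acads. Acadm, the medium-chain enzyme, had −0.52 (SE 0.14, adjusted p = 0.0298 from limma) and −0.85 (SE 0.14, adjusted p = 0.00111 from limma). Acad11, a further family member, had −0.47 (adjusted p = 0.0448 from limma) and −0.91 (adjusted p = 0.000914 from limma). Only Acadm and Acad11 passed with vehicle, and all 5 passed with ATG, where 18.9% and 46.7% of all genes passed. Whether the enzymes differed from each other in their response was not tested.

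Of the 5 genes from hydration to thiolysis, Echs1 and Hadh passed for diabetes with vehicle and all 5 passed with ATG. Of all genes, 18.9% and 46.7% passed. Echs1, the short-chain enoyl-CoA hydratase on chromosome 7 from 140105723 to 140116423, had log2 values of 12.38, 12.43 and 12.35 in vehicle-treated and 13.26, 12.90 and 12.53 in ATG-treated nondiabetic mice. In diabetic mice it had 11.61, 12.0005 and 11.23 with vehicle and 11.72, 11.87 and 11.77 with ATG. The highest diabetic value, in vehicle-treated mouse 2, lay below the lowest nondiabetic one. Diabetic mice differed by −0.77 (SE 0.19, adjusted p = 0.0212 from limma) with vehicle and −1.12 (SE 0.19, adjusted p = 0.00132 from limma) with ATG. Echs1 overlaps the coding gene Paox in the annotation, and the strand of counting is not given in the sources used here. Hadh, the next dehydrogenase for medium and short chains, had differences of −0.75 (adjusted p = 0.0258 from limma) and −1.17 (adjusted p = 0.00118 from limma). Acaa2, the mitochondrial thiolase, had −0.38 (adjusted p = 0.131 from limma) and −0.81 (adjusted p = 0.00329 from limma).

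Hadha and Hadhb encode both subunits of the trifunctional protein, which carries long chains through hydration, oxidation and thiolysis. They lie head to head on chromosome 5, Hadha from 30118304 to 30154980 on the minus strand and Hadhb from 30155253 to 30184593 on the plus strand, with 272 bases between them. The difference for diabetes was −0.22 (95% interval −0.52 to 0.08) for Hadha and −0.39 (95% interval −0.69 to −0.09) for Hadhb with vehicle, and −0.54 and −0.73 with ATG. Both passed with ATG only. The upstream sequence that the pair shares, at chr5:30155003-30155252 and written in the Hadhb direction, is shown with its 2 GC boxes (GGGCGG, the Sp1 type) in capitals.
Hadhb: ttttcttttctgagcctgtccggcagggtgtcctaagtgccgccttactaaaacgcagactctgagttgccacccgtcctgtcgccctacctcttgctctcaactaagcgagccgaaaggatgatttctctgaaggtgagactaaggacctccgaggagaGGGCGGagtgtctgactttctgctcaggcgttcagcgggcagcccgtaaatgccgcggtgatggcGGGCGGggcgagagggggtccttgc
A GC box was in the upstream window of 20 of 32 members (62.5%), against 61.4% of listed genes, and a CCAAT box, absent from this stretch, in 15 of 32 (46.9%), against 40.1%. Neither share is a result about the members.

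Genes that handle double bonds showed small differences, and 0 of 3 passed with vehicle in limma, with 1, Decr1, at an unadjusted p under 0.05. Eci2, an enoyl-CoA isomerase on chromosome 13 from 34977748 to 34994144, had log2 values of 10.72, 10.59 and 10.61 in vehicle-treated and 10.97, 11.06 and 10.71 in ATG-treated nondiabetic mice. In diabetic mice it had 10.82, 10.62 and 10.56 with vehicle and 10.66, 10.57 and 10.48 with ATG. Under vehicle, diabetic and nondiabetic mice overlapped. The difference for diabetes was 0.03 (95% interval −0.19 to 0.24) with vehicle and −0.34 (SE 0.10, adjusted p = 0.0167 from limma) with ATG. Eci1, the other mitochondrial isomerase, had −0.21 and −0.41, and Decr1, the dienoyl-CoA reductase, −0.20 and −0.45, and both passed with ATG.

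The electron transfer genes pass electrons from the dehydrogenases to the respiratory chain, and 0 of 3 passed for diabetes with vehicle in limma, although all 3, and 5011 of all 14096 genes, had an unadjusted p under 0.05. Etfdh, the oxidoreductase that hands them to ubiquinone, lies on chromosome 3 from 79603788 to 79628767. Its log2 values were 11.71, 11.59 and 11.52 in vehicle-treated nondiabetic mice, 12.23, 12.12 and 11.84 in ATG-treated nondiabetic mice, 11.27, 11.44 and 11.17 in vehicle-treated diabetic mice and 11.38, 11.29 and 11.39 in ATG-treated diabetic mice. ATG-treated nondiabetic mice lay above the vehicle-treated ones, and both lay above all diabetic mice. Etfdh differed between ATG and vehicle by 0.46 (SE 0.10, adjusted p = 0.0342 from limma) in nondiabetic mice, which passed in 3 of 12 fits with 1 mouse left out (adjusted p 0.00340 to 0.149 from limma). In diabetic mice the difference was 0.06 (95% interval −0.17 to 0.29). The difference for diabetes was −0.31 (SE 0.10, adjusted p = 0.0542 from limma) with vehicle and −0.71 (SE 0.10, adjusted p = 0.000580 from limma) with ATG. Etfa and Etfb, the subunits of the electron transfer flavoprotein, had −0.57 and −0.35 with vehicle and −1.05 and −0.75 with ATG. With 1 mouse left out, the vehicle values ranged from −0.79 to −0.35 for Etfa and from −0.54 to −0.17 for Etfb. Etfdh overlaps the coding gene Ppid and Etfb overlaps Cldnd2, and the Etfb values did not come out as whole reads in any library.

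Among 6 peroxisomal genes, Ehhadh alone passed with vehicle and all 6 passed with ATG, where 18.9% and 46.7% of all genes passed. Ehhadh, the bifunctional enzyme of peroxisomal oxidation on chromosome 16 from 21761285 to 21787834, had log2 values of 11.17, 10.92 and 10.69 in vehicle-treated and 11.61, 12.27 and 11.26 in ATG-treated nondiabetic mice. In diabetic mice it had 10.04, 10.22 and 9.39 with vehicle and 10.32, 10.32 and 9.92 with ATG. Nondiabetic mice lay above diabetic mice and, within them, ATG above vehicle. Diabetic mice differed by −1.04 (SE 0.27, adjusted p = 0.0232 from limma) with vehicle and −1.53 (SE 0.27, adjusted p = 0.00138 from limma) with ATG.

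Decr2, the peroxisomal dienoyl-CoA reductase on chromosome 17 from 26081211 to 26090164, had log2 values of 10.11, 10.05 and 9.95 in vehicle-treated and 10.51, 10.32 and 10.12 in ATG-treated nondiabetic mice. In diabetic mice the values were 9.82, 9.74 and 9.64 with vehicle and 9.75, 9.59 and 9.54 with ATG. The spread within each group was small and the diabetic mice lay below the nondiabetic mice. The difference for diabetes was −0.31 (SE 0.10, adjusted p = 0.0570 from limma) with vehicle and −0.69 (SE 0.10, adjusted p = 0.000624 from limma) with ATG. Of the rest, Hsd17b4, the other bifunctional enzyme, and Acaa1a, a peroxisomal thiolase, had −0.10 and −0.20 with vehicle and −0.41 and −0.54 with ATG. Acox2, an oxidase for branched chains and bile acid precursors, had −0.21 and −0.94, and Pex11a, which promotes division of peroxisomes, −0.55 and −0.80.

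Of 3 acyl-CoA thioesterases, which release free fatty acids, only Acot12 passed for diabetes with vehicle, and Acot12 and Acot2 passed with ATG. Of all genes, 18.9% and 46.7% passed. Acot2, the mitochondrial form on chromosome 12 from 83987861 to 83993875, had log2 values of 9.66, 9.31 and 9.43 in vehicle-treated and 9.83, 9.86 and 9.85 in ATG-treated nondiabetic mice. In diabetic mice they were 9.61, 9.53 and 9.70 with vehicle and 9.66, 9.51 and 9.50 with ATG. ATG-treated nondiabetic mice lay close together above all other mice. Acot2 differed between ATG and vehicle by 0.38 (SE 0.092, adjusted p = 0.0419 from limma) in nondiabetic mice, which passed in 4 of 12 fits with 1 mouse left out and not with the replicate block (adjusted p = 0.0527 from limma). For diabetes the difference was 0.15 (95% interval −0.05 to 0.35) with vehicle and −0.29 (adjusted p = 0.0251 from limma) with ATG. Acot1, the cytosolic form, lies 15626 bases from Acot2, and as near-identical copies the 2 genes may have exchanged reads in counting. Acot12, which cleaves acetyl-CoA, fell by 1.11 with diabetes in vehicle-treated mice (adjusted p = 0.0302 from limma) and by 1.56 in ATG-treated mice (adjusted p = 0.00250 from limma).

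Bdh1 encodes the mitochondrial enzyme that interconverts the ketone bodies hydroxybutyrate and acetoacetate. In vehicle-treated nondiabetic mice its log2 values were 10.50, 10.46 and 10.58, and in vehicle-treated diabetic mice 9.98, 10.45 and 9.03, where mouse 3 lay far below and mouse 2 just below the nondiabetic range. The difference of −0.70 (SE 0.29, adjusted p = 0.116 from limma) did not pass with vehicle, and that of −0.998 (SE 0.29, adjusted p = 0.0176 from limma) passed with ATG. The Bdh1 values did not come out as whole reads in any library either.

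Pdk4, the kinase that shuts pyruvate out of oxidation when fat is burned, had the widest range of the members. Log2 values were 10.84, 10.86 and 11.40 in vehicle-treated and 12.68, 12.49 and 11.85 in ATG-treated nondiabetic mice. In diabetic mice they were 10.14, 10.39 and 9.19 with vehicle and 10.77, 9.87 and 9.69 with ATG. The nondiabetic groups did not overlap each other or the diabetic groups. Diabetic mice differed by −1.13 (SE 0.36, adjusted p = 0.0482 from limma) with vehicle and −2.23 (SE 0.36, adjusted p = 0.000916 from limma) with ATG, and that for ATG in nondiabetic mice was 1.31 (SE 0.36, adjusted p = 0.0564 from limma). Angptl4, an inhibitor of lipoprotein lipase and a classical PPAR target, had −0.12 (95% interval −0.66 to 0.43) and −0.34 (95% interval −0.89 to 0.20) for diabetes.

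**Figure D4:**
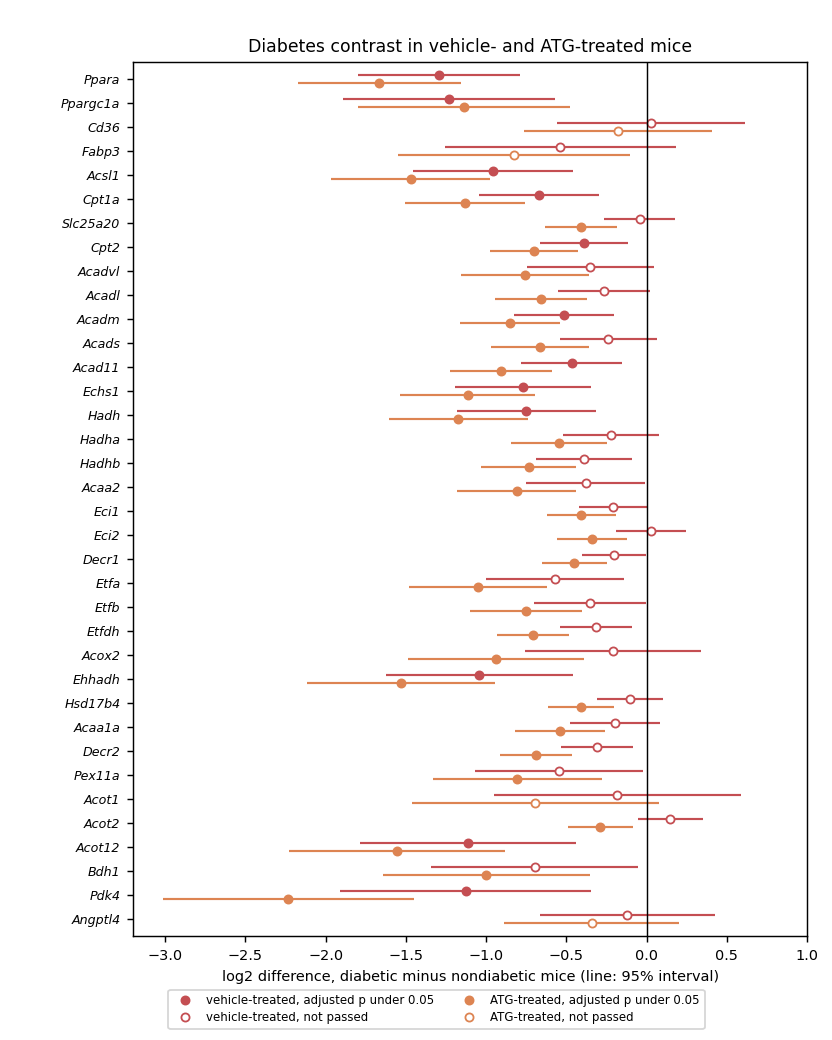
Log2 difference between diabetic and nondiabetic mice (horizontal axis) for each of the 36 members, with its 95% interval, in vehicle-treated mice (red) and in ATG-treated mice (orange), filled where the adjusted p was under 0.05. All but Ppargc1a lie further to the left in ATG-treated mice, where the differences ran from −2.23 (Pdk4) to −0.18 (Cd36).

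Whether the difference between ATG and vehicle depended on diabetes was tested as the difference between both ATG effects. For the members, 0 passed in limma, as did 0 in limma-voom, and 6 of 36 had an unadjusted p under 0.05, as did 1812 of all 14096 genes. Of all genes 0.546% passed, 0.539% as higher and 0.00709% as lower. The lowest adjusted p was 0.199 from limma, for Acot2, with a difference between the effects of −0.44 (SE 0.13). Etfdh followed with −0.40 (SE 0.15) and Decr2 with −0.38 (SE 0.14). The difference was negative for 35 of the 36 members, with a median of −0.38, and Ppargc1a at 0.09 was the exception. The same term sets the diabetes difference of ATG-treated mice apart from that of vehicle-treated mice, so the larger number of members passing with ATG was not shown by this test for any single gene.

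The 3 mice of a group also lay wholly apart for some members. In vehicle-treated mice, 18 of the 36 members had all diabetic mice below all nondiabetic mice, against 18.7% of all genes. In ATG-treated mice, 34 did, against 25.6%, with Cd36 and Angptl4 as the exceptions. In nondiabetic mice, 25 members had all ATG-treated mice above all vehicle-treated mice, against 14.4% of all genes. In diabetic mice, only Ppara did, against 3.85% of all genes.

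The number passing depended on single mice. For diabetes with vehicle, 1 member passed, Ppara, without vehicle-treated nondiabetic mouse 1 or mouse 2, where 8.95% and 5.68% of all genes passed. Ppara and Acsl1 passed without vehicle-treated diabetic mouse 1 or mouse 3, where 7.12% and 15.2% of all genes did. Without vehicle-treated nondiabetic mouse 3, 8 members and 11.3% of all genes passed, and 19 members passed without vehicle-treated diabetic mouse 2, where 20.7% of all genes passed. For ATG in nondiabetic mice, 25 members passed without ATG-treated nondiabetic mouse 3, and 12 without vehicle-treated diabetic mouse 3, which enters through the shared estimate of spread. The share of all genes passing rose with them, from 5.22% to 25.1% and 10.1%. There, 4 passed without vehicle-treated diabetic mouse 2, 1 (Acot2) without vehicle-treated nondiabetic mouse 1 and 0 without any other mouse, where 5.63%, 0.901% and between 0.426% and 3.19% of all genes passed. For diabetes with ATG, between 28 and 33 members passed, and 28 of the 32 passed with each mouse left out, while 33.8% to 52.9% of all genes passed. Without nondiabetic mouse 1 of each treatment, whose titles are written differently from the others, the counts were 5 for diabetes with vehicle, 0 for ATG in nondiabetic mice and 28 for diabetes with ATG, where 13.0%, 0.0568% and 30.6% of all genes passed.

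Levels were compared between members per kilobase of transcript, as the mean linear value over the 12 mice. Etfb was highest at 6057 per kilobase, as it was in each group, with Hadhb at 4198 and Hadh at 3895. Cpt1a, at 2822, lay above its partners Cpt2 at 828 and Slc25a20 at 754. The regulators were low, with Ppargc1a at 397 and Ppara at 134 and Acox2 at 93.6. The order changed between groups, and in vehicle-treated diabetic mice Ppara, at 56.8, lay below Acox2, at 72.7. Echs1 was at 3337.

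Beyond the members, 96 of 101 further genes of the same pathways were listed. For diabetes with vehicle, 32 of them passed as lower and 8 as higher, with a median log2 difference of −0.31, while 8.63% and 10.2% of all genes passed in these directions. Oxct1, the enzyme that lets tissues burn ketone bodies, fell by 0.92 (SE 0.25, adjusted p = 0.0270 from limma), from a mean of 14.93 to 14.01. Amacr, a racemase for branched chains, and Acad12, a further acyl-CoA dehydrogenase, fell by 1.15 and 0.82. Cpt1b, the muscle form of the entry enzyme, had −0.66 (adjusted p = 0.117 from limma) and did not pass.

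The 8 of 96 that rose with diabetes in vehicle-treated mice, a share no higher than that over all genes, included lipid-binding proteins and PPARγ. Fabp5 rose by 1.31 (SE 0.17, adjusted p = 0.00242 from limma) and Fabp4 by 1.12 (SE 0.17, adjusted p = 0.00435 from limma), both carriers of fatty acids in adipocytes, macrophages and endothelium. Pparg, the PPAR of fat storage, rose by 0.78 (SE 0.14, adjusted p = 0.00707 from limma), and Cpt1c, the neuronal CPT1 relative, by 0.75 (SE 0.092, adjusted p = 0.00207 from limma). The remaining 4 were Acot7, Acot9, Plin2 and Ucp2, which were named after their values were seen. Endothelial markers, at 0.835% to 0.918% of the linear sum in vehicle-treated nondiabetic mice and 0.987% to 1.18% in vehicle-treated diabetic mice, and leukocyte markers, at 0.0273% to 0.0417% and 0.0384% to 0.0566%, moved as well (4 of 12 and 3 of 8 passed as higher), and their part in the result was not tested. Of 6 adipocyte markers only Cfd was listed.

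In ATG-treated mice, 66 of the 96 passed as lower with diabetes, where 20.8% of all genes did, and 9 as higher, where 25.9% did, with Cpt1c at 1.24, Fabp5 at 1.70, Pparg at 1.39 and Fabp4 at 1.53. Between ATG and vehicle in nondiabetic mice, 4 of them passed as higher, namely Cat, Scp2, Echdc1 and Pex7, and 2 as lower, a smaller share than the 4.51% of all genes that passed as lower (0.709% as higher). Pparg was lower by a log2 difference of −0.92 (SE 0.14, adjusted p = 0.00853 from limma) and Cpt1c by −0.60 (SE 0.092, adjusted p = 0.00884 from limma). Cat, the catalase of peroxisomes, was higher by 0.57 (SE 0.12, adjusted p = 0.0259 from limma). Between ATG and vehicle in diabetic mice, 0 passed in limma and 3 of 96 had an unadjusted p under 0.05, a share no higher than the 636 of 14096 over all genes. These were Plin2, a lipid droplet protein, at −0.33, Pdp2, a pyruvate dehydrogenase phosphatase, at 0.43 and Pparg at −0.31. All 8 leukocyte markers also had negative differences there (median −0.56), with 0 passing in limma and 4 at an unadjusted p under 0.05, and their part in these values was not tested.

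**Figure D5:**
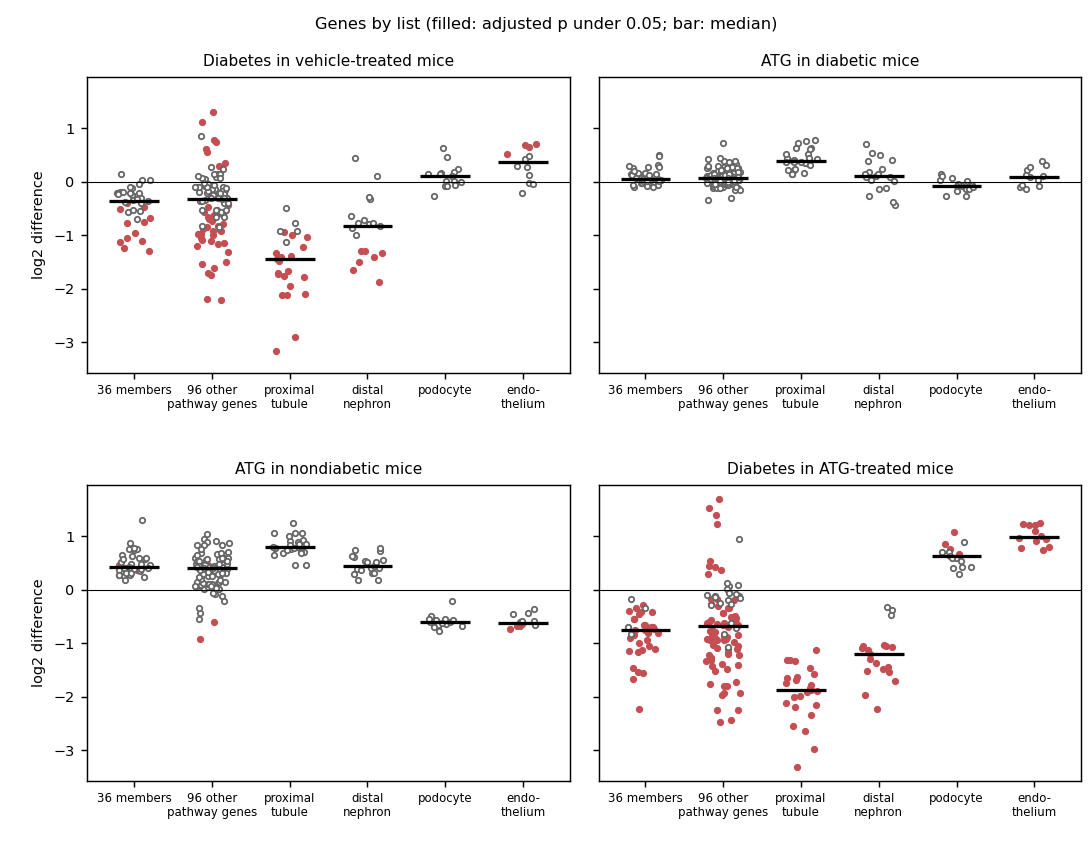
Log2 difference of each gene (points, filled red where the adjusted p was under 0.05) by list and comparison, with the list's median as a bar. The members and the proximal tubule markers have medians on the same side of 0 in all 4 comparisons, of −0.37 and −1.45, 0.06 and 0.39, 0.42 and 0.79, and −0.75 and −1.87.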

How the data were processed

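Glomerular mRNA of 12 mice was measured by poly-A sequencing. The authors deposited, per library, log2 values of reads per gene scaled by 1 factor per library. The submitters' processing notes name mm10 and limma, and the aligner, counter and strand setting are not given in the sources used here. No column came from another series. Between 83.4% and 84.1% of linear values under 2000 were whole reads within 0.02 reads, which gave the depths.

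Values as deposited were fitted with limma 3.58.1 in R 4.3.3 (1 mean per group, mean-variance trend, two-sided, Benjamini-Hochberg over 14096 genes) after the script was tested on simulated data. The labels' description gave the groups. Nos3, the deleted gene of the strain, was listed in all 12 libraries at 846 to 2703 reads, and which exons the deletion removes is not given, so these reads check nothing.

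Members and lists were chosen with earlier results of these data known. Values in every mouse are given for Ppara, Ppargc1a and Cpt1a, for the 6 members of lowest p for diabetes with vehicle, up to 3 of lowest p in each other comparison, and the 3 of smallest difference. Fabp3, Bdh1 and Pdk4 were added after their values were seen. Of other pathway genes, up to 5 of lowest p per comparison were named, with Cpt1b, Oxct1 and Pparg and others that are not reported here. Alternatives were scaling, a filter on low values, limma-voom, prior variance, groups in the model, a replicate block, marker covariates, single mice left out and the threshold. The distal nephron covariate was chosen after seeing the data. Positions are 1-based. Sequences and starts are RefSeq's on GRCm38.p6, and figures were drawn with matplotlib 3.10.9.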

Additional observations from a re-analysis of the deposited data

How the results depend on the processing

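Under median-ratio scaling, a mean log2 value of at least 8, limma-voom and a prior variance without a trend, 9 or 10 members passed for diabetes with vehicle, 2 or 3 for ATG in nondiabetic mice and 30 or 32 for diabetes with ATG, and 0 for ATG in diabetic mice. Of all genes, 17.5% to 19.2%, 3.82% to 6.55%, 45.5% to 49.2% and 0% passed, and the filter on mean log2 value left 33 members, of which 30 passed. With only the groups compared in the model, these counts were 9, 0, 33 and 0, where 16.3%, 0%, 39.2% and 0% of all genes passed. At an adjusted p under 0.1, 20 members passed for ATG in nondiabetic mice, and 15.2% of all genes. With the proximal tubule covariate, 0 passed in each comparison, and among members that had passed, differences for diabetes changed sign for Cpt2 (0.0765), Acad11 (0.0409), Ehhadh (0.0307) and Acot12 (0.0568) with vehicle and for Acaa2 (0.0145), Acox2 (0.198) and Acaa1a (0.0905) with ATG. Of the members that had not passed, 16 of 24 changed sign with vehicle and 4 of 4 with ATG. With the distal nephron covariate, 2 passed for diabetes with vehicle (Ppara lower, Fabp3 higher), 0 for ATG in nondiabetic mice and 5 for diabetes with ATG, where Bdh1 (0.154) and Fabp3 (0.49) changed sign. With vehicle, 15 of the 24 members that had not passed changed sign. Without nondiabetic mouse 1 of each treatment, 5 and 0 passed for diabetes with vehicle and for ATG in nondiabetic mice. With 1 mouse left out at a time, the counts ranged from 1 to 19 for diabetes with vehicle, 0 to 25 for ATG in nondiabetic mice, 28 to 33 for diabetes with ATG and 0 to 2 for the difference between the ATG effects. The 2, Eci2 and Etfdh, passed without ATG-treated nondiabetic mouse 3, where 5.46% of all genes also passed for that difference. The cause of these changes was not tested.

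With the replicate block, 1 member (Ppara, −1.15) passed for diabetes with vehicle, 6 for ATG in nondiabetic mice, 27 for diabetes with ATG and 0 for ATG in diabetic mice, where 9.75%, 6.71%, 31.4% and 0% of all genes passed. The block was the number in the title, with the unnumbered nondiabetic mice as a block of their own. Number 3 occurred in diabetic mice only, so the blocked differences for diabetes rest mainly on numbers 1 and 2. Whether the numbers in the titles pair the mice was not settled. Among diabetic mice, deviations from the group mean correlated across genes between the treatments at r = 0.315, 0.0537 and 0.339 for numbers 1 to 3. Vehicle-treated diabetic mice 1 and 3 correlated best with the ATG-treated mouse of the same number, and mouse 2 with ATG-treated mouse 1 (r = 0.198). Deviations within groups of 3 mice cannot decide on pairing.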
